A study of Mus musculus with 20 samples.

Results

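The genes described here are Trp53, which encodes p53, its inhibitor Mdm2, and 7 genes known as targets of p53: Ccng1, Btg2, Bax, Bbc3, Phlda3, Trp53inp1 and Zmat3. They were taken by symbol from the deposited count tables, and all 9 were found among the 49568 gene rows. RNA had been sequenced from 4 groups of 5 libraries each: multipotent progenitors (MPP) of Ahr knockout mice, MPP of wild-type (WT) mice, long-term haematopoietic stem cells (LT-HSC) of Ahr knockout mice, and LT-HSC of WT mice. LT-HSC are the stem cells at the top of blood formation and can sustain it for life, while MPP descend from them and can still form every blood lineage but sustain it only for a time. Per the labels, all mice were C57BL/6, 8 to 12 weeks old and untreated, and both populations were sorted by flow cytometry from bone marrow. The knockout groups are labelled AhR-KO and are written Ahr-KO here. The sources used here do not give the allele, the sort markers, the sex of the mice or whether libraries came from separate animals, so p-values measure the spread between these libraries, which may be technical. The series asks which genes act downstream of the aryl hydrocarbon receptor (AHR), a ligand-activated transcription factor, in stem cell function and proliferation.

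p53 is a transcription factor that is held at a low level by MDM2, a ubiquitin ligase that marks it for degradation and whose own gene is a p53 target. DNA damage and other stresses free p53, mainly by slowing its degradation, so that the activity of p53 is read from its target genes and not from the level of its transcript. The targets act on the cell cycle (Cdkn1a, Btg2, Ccng1), open the mitochondrial route to apoptosis (Bax, Bbc3), restrain AKT signalling (Phlda3) or shape autophagy, splicing and RNA stability (Trp53inp1, Zmat3). In blood stem cells p53 is known for its part in quiescence and in the response to radiation.

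Sequence around the start of transcription was available from RefSeq (GRCm38.p6) for 8 of 10 genes, the 9 and Cdkn1a, the textbook p53 target that encodes the cell cycle inhibitor p21. Each window holds 250 bases before and 50 bases after the start, and the table holds 32851 such windows of mouse genes. The windows were searched on both strands for the p53 half-site, for the p53 full site (a pair of half-sites with at most 2 mismatches, a spacer of at most 13 bases and the central C and G of each half-site kept) and for GCGTG, the core of the motif bound by AHR. A full site can contain a half-site, and the other motifs are counted wherever they stand. A half-site stood in 8.36% of all windows, a full site in 4.08% and GCGTG in 32.4%. The 4 windows printed here belong to the genes on which the comparisons turn: Ccng1 and Btg2, which differed between the populations, Mdm2, whose libraries separated by genotype in LT-HSC, and Cdkn1a. Capitals mark p53 half-sites and full sites and GCGTG on either strand, and each window is written 5′ to 3′ along the gene's own strand.
Ccng1 (chr11:40755237-40755536, minus strand): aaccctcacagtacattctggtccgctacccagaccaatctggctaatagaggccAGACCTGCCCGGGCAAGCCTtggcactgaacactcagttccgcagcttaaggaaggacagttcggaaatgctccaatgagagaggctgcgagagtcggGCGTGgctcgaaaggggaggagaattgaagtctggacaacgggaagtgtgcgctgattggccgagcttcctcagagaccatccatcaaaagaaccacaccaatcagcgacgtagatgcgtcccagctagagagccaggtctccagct
Btg2 (chr1:134079106-134079405, minus strand): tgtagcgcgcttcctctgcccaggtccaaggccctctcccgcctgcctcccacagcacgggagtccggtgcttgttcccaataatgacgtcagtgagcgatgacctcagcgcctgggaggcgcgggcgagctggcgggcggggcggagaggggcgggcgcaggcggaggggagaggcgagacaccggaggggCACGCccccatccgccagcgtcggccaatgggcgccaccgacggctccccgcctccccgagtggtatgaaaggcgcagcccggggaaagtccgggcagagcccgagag
Mdm2 (chr10:117710709-117711008, minus strand): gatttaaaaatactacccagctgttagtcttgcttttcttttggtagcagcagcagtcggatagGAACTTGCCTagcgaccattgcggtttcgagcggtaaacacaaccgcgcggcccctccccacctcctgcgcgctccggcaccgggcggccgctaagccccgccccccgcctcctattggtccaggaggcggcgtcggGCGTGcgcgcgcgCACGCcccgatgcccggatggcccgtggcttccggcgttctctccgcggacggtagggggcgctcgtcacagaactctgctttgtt
Cdkn1a, the upstream of 2 windows (chr17:29090729-29091028, plus strand): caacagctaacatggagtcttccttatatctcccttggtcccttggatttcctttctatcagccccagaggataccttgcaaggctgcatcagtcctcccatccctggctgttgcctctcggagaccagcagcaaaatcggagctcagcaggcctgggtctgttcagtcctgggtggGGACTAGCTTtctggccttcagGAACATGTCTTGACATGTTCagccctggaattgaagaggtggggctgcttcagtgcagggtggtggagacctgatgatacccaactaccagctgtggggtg
The Ccng1 window held a full site with 1 mismatch and no spacer that began 195 bases before the start, and 1 GCGTG. The upstream Cdkn1a window held a full site with 1 mismatch and no spacer that began 51 bases before the start. In the other Cdkn1a window, not printed, neither p53 motif was found, and GCGTG was found once. The Mdm2 window held a half-site that began 186 bases before the start and 2 GCGTG. In the Btg2 window neither p53 motif was found, and GCGTG was found once. Of the windows not printed, that of Bax held a full site with 2 mismatches, that of Trp53 held a half-site, and those of Phlda3 and Bbc3 held neither p53 motif. A match of letters is not a bound site, and no match says only that these letters are not in this window. The RefSeq table gave no window for Zmat3 and Trp53inp1.

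Library totals ranged from 13712668 to 21622653 counts. Values are given as CPM, the counts of a gene scaled to a common library size, on totals scaled by TMM, a normalization that aligns the bulk of the genes between libraries. The labelled populations were checked on markers: the summed level of 7 LT-HSC markers was 482 to 861 CPM in Ahr-KO MPP, 493.2 to 663 CPM in WT MPP, 1528 to 1923 CPM in Ahr-KO LT-HSC and 1873 to 1946 CPM in WT LT-HSC. The summed level of 3 progenitor markers ran the other way, with 1351 to 2023 CPM over both MPP groups and 343 to 524 CPM over both LT-HSC groups. Ahr itself averaged 15.9 ± 3.91 CPM in Ahr-KO MPP and 9.81 ± 3.66 CPM in WT MPP, with 23.6 ± 4.14 CPM in Ahr-KO LT-HSC against 26.5 ± 6.35 CPM in WT LT-HSC (SD, n = 5 each). A count over the whole gene includes transcripts of an allele that lacks only some exons, and with the allele not known it does not check the labels: Ahr-KO and WT are the groups as labelled throughout. The library WT LT-HSC 1 stood apart, with correlations of 0.909 to 0.918 to the others of its group, 0.386% of counts from mitochondrial genes, and Kit and Ly6a summing to 687 CPM, the lowest value of all 20 libraries. The libraries Ahr-KO LT-HSC 2 and 3 stood apart by markers of mature cells: all 8 neutrophil markers were higher in both than in the other 3 libraries of the group, summing to 943 and 1411 CPM against 8.01 to 13.9 CPM in those 3. All 7 monocyte and macrophage markers and all 7 erythroid markers showed the same order, as did 5 of 7 B cell markers, 5 of 6 T and NK cell markers and 3 of 5 stromal markers, and the stromal sum in Ahr-KO LT-HSC 3 was 3723 CPM. No neutrophil, monocyte and macrophage marker was at 0 in any of the other 3 libraries. Of the WT LT-HSC libraries, number 6 had the highest erythroid sum, 1780 CPM against 356 to 498 CPM in the other 4, and the highest neutrophil sum, 91.0 CPM. Values without the first 3 of these libraries are given too for some genes. For these genes, leaving them out ends a call, adds one or moves a value by over 1.5 times. Not every value that moves so is given.

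Across the 4 groups Trp53 was the steadiest of the 9 genes, and Btg2 the most variable: the highest group mean of Trp53 was 1.11 times the lowest, that of Btg2 2.53 times. Per kilobase of merged exon, the mean level of Trp53 was 56.9 to 63.5 CPM per kb and the highest of the 9 genes in each group, and that of Zmat3 was 0.134 to 0.208 CPM per kb and the lowest in each group. Between these, Ccng1 and Bax took ranks 2 and 3 in every group, in either order, and Phlda3 rank 8. The libraries of these neighbours overlapped in 3 groups: Ccng1 was at 26.1 to 30.8 CPM per kb and Bax at 22.8 to 32.8 CPM per kb in Ahr-KO MPP, at 24.7 to 33.6 and 16.5 to 32.2 in WT MPP, and at 33.5 to 42.0 and 16.2 to 34.7 in WT LT-HSC. In Ahr-KO LT-HSC they did not overlap, at 32.1 to 42.7 CPM per kb for Ccng1 and 14.6 to 23.4 CPM per kb for Bax.

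**Figure D1:**
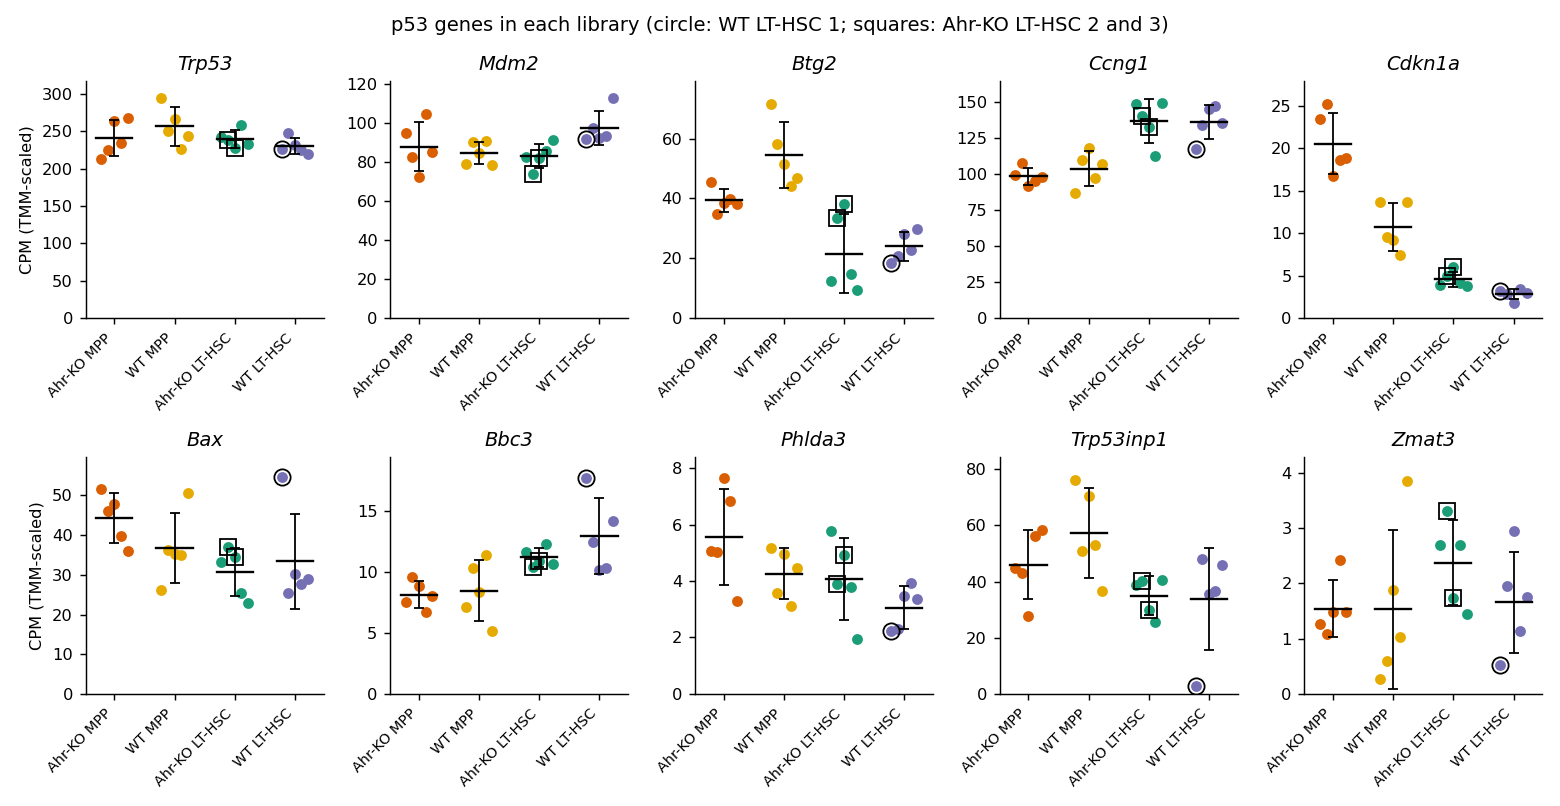
CPM (y axis, from 0) of the 9 genes and Cdkn1a in each of the 20 libraries, by group (x axis); points are libraries, lines are group means and bars are 1 SD (n = 5 each). Trp53 stays between 213 and 295 CPM, Ccng1 is lower and Btg2 higher in MPP than in LT-HSC, and the circled library WT LT-HSC 1 is at 2.71 CPM for Trp53inp1 and 54.7 CPM for Bax.

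Trp53 (ENSMUSG00000059552; GRCm38, chromosome 11, 69580359 to 69591873, plus strand) was not called in any comparison. It had 213, 225, 264, 235 and 268 CPM in Ahr-KO MPP, against 295, 251, 267, 227 and 244 CPM in WT MPP. It had 243, 238, 228, 259 and 233 CPM in Ahr-KO LT-HSC, against 226, 248, 231, 225 and 220.4 CPM in WT LT-HSC. The groups overlapped in every comparison, and the largest log2 fold change, MPP over LT-HSC in WT, was 0.16 ± 0.08 (SE; 95% interval -0.01 to 0.33; edgeR adjusted p = 0.180). For the Ahr-KO effect the intervals on the log2 scale ran from -0.29 to 0.11 in MPP and from -0.07 to 0.22 in LT-HSC. Each library is RNA of a sorted pool, so a lower value can mean fewer cells that express a gene or less RNA per cell, which cannot be told apart. The pseudogene Trp53-ps had at most 12 counts in a library, against at least 3030 for Trp53.

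Mdm2 (ENSMUSG00000020184; chromosome 10, 117688875 to 117710758, minus strand), the inhibitor of p53 and its target, was lower in all 5 Ahr-KO LT-HSC libraries than in any WT LT-HSC library, by a small amount that did not pass the test over all genes. It had 82.4, 74.2, 82.3, 85.8 and 91.4 CPM in Ahr-KO LT-HSC, against 92.1, 97.4, 92.4, 93.6 and 113 CPM in WT LT-HSC. In MPP the groups overlapped, with 94.9, 82.7, 72.2, 105 and 85.1 CPM in Ahr-KO MPP and 79.1, 90.3, 84.5, 90.7 and 78.7 CPM in WT MPP. The log2 fold change of Ahr-KO over WT was -0.22 ± 0.09 in LT-HSC (adjusted p = 0.546) and 0.05 ± 0.11 in MPP (adjusted p = 0.944). Groups that do not overlap were found for 3.64% of the genes tested in LT-HSC (2.23% higher and 1.41% lower in Ahr-KO). Without the highest WT library, WT LT-HSC 8, the log2 fold change was -0.16 ± 0.09 (adjusted p = 0.702). All 5 WT MPP libraries were also below all 5 WT LT-HSC libraries (log2 fold change -0.21 ± 0.10, adjusted p = 0.141). Between these 2 groups 16.4% of all genes did not overlap (8.09% lower in MPP). This comparison and that of genotypes in LT-HSC share the WT LT-HSC libraries. The Ahr-KO effect in MPP minus that in LT-HSC was 0.29 ± 0.14 on the log2 scale (adjusted p = 0.770).

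**Figure D2:**
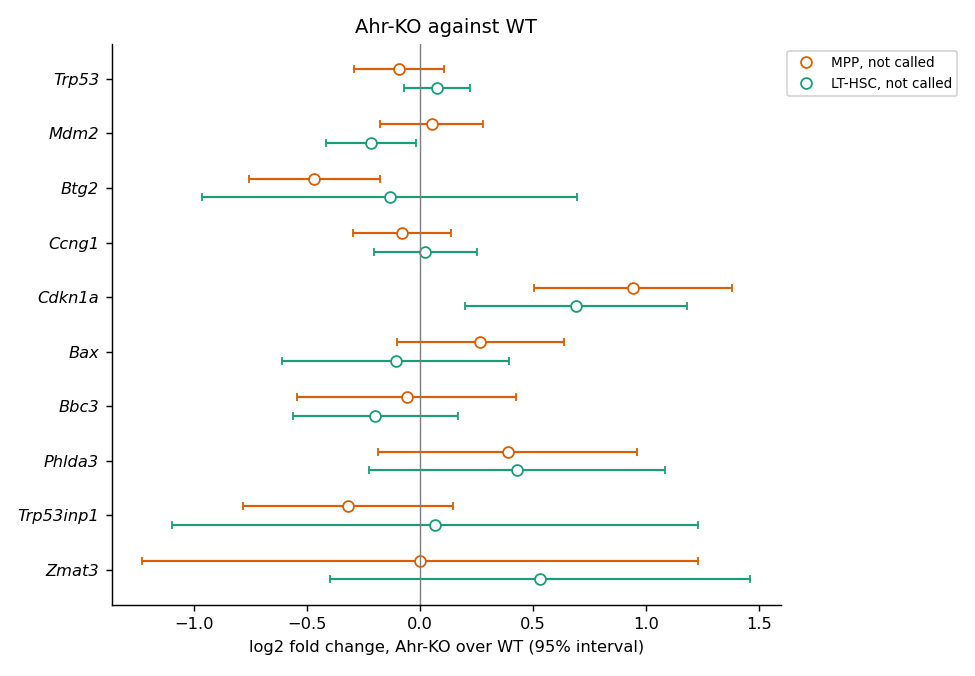
Log2 fold change of Ahr-KO over WT (x axis) with its 95% interval for the 9 genes and Cdkn1a (rows), in MPP (upper of each pair) and LT-HSC (lower); open circles are genes not called at an adjusted p under 0.05. All 20 circles are open, and the intervals of Btg2 in MPP, Mdm2 in LT-HSC and Cdkn1a in both populations do not include 0.

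The first comparison of the design was between the genotypes as labelled. None of the 9 genes was called between Ahr-KO and WT in either population by edgeR's quasi-likelihood test (adjusted p under 0.05 over all genes tested), with all 9 tested in each. In LT-HSC 0.00622% of the genes tested were called and in MPP 0.0311% (0.0187% higher, 0.0124% lower), which is 1 of 16065 and 5 of 16077 genes. At an unadjusted p under 0.05, 1 of the 9 genes passed in LT-HSC (Mdm2) and 1 in MPP (Btg2), where 8.85% and 6.62% of all genes did, and DESeq2 and limma voom called 0 of the 9 in both populations. The median log2 fold change of the 9 genes was -0.06 in MPP and 0.02 in LT-HSC, and that of all genes tested was 0.00 in both. No gene was called for a difference between the Ahr-KO effects in MPP and in LT-HSC, among the 9 or among all genes (0% of 17416 tested). At an unadjusted p under 0.05 the same test gave 0 of the 9 genes and 1125 of all genes (6.46%), and over all genes DESeq2 called 51 and voom 18.

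Btg2 (ENSMUSG00000020423; chromosome 1, 134075170 to 134079120, minus strand), an antiproliferative gene that slows entry into S phase, was higher in MPP than in LT-HSC in both genotypes. It had 45.4, 34.7, 38.6, 39.8 and 38.3 CPM in Ahr-KO MPP, against 12.4, 33.4, 38.1, 14.6 and 9.27 CPM in Ahr-KO LT-HSC. It had 71.6, 58.3, 51.5, 44.1 and 46.8 CPM in WT MPP, against 18.4, 20.7, 28.2, 22.9 and 29.8 CPM in WT LT-HSC. The WT groups did not overlap, while in Ahr-KO LT-HSC library 3 lay within the MPP range, library 2 just below it and the other 3 far below. The fold change of MPP over LT-HSC was 1.83 in Ahr-KO (log2 0.87 ± 0.29, adjusted p = 0.0380) and 2.27 in WT (log2 1.18 ± 0.29, adjusted p = 0.00643). In Ahr-KO the call was lost when any library of the comparison other than Ahr-KO LT-HSC 2 or 3 was left out, with log2 fold changes of 0.64 to 0.87 and adjusted p of 0.0633 to 0.124. Without the 3 libraries that stood apart the fold change in Ahr-KO was 1.70 ± 0.19 on the log2 scale (adjusted p = 4.0e-06). Ahr-KO LT-HSC 2 and 3, the pair high in Btg2, are the pair high in neutrophil, monocyte and erythroid markers. The neutrophil sum was also higher in MPP (153 to 781 CPM in Ahr-KO, 384 to 714 CPM in WT) than in the other LT-HSC libraries (at most 91.0 CPM). So was the monocyte and macrophage sum (143 to 221 and 136 to 163 CPM, against at most 49.7 CPM). The erythroid sum was not: it was 143.5 to 500 CPM in Ahr-KO MPP and 244 to 679 CPM in WT MPP. In the other Ahr-KO LT-HSC libraries it was 98.1 to 295 CPM, and in WT LT-HSC 356 to 1780 CPM. The part of these markers in the level of Btg2 was not tested.

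Between genotypes, Btg2 averaged 39.4 ± 3.86 CPM in Ahr-KO MPP and 54.5 ± 11.0 CPM in WT MPP (SD, n = 5 each). The highest Ahr-KO library, at 45.4 CPM, lay above the lowest WT library, at 44.1 CPM, and the other 4 Ahr-KO libraries lay below all WT libraries. The log2 fold change of -0.47 ± 0.13 had an unadjusted p of 0.00406 and an adjusted p of 0.554. In LT-HSC the fold change depended on the libraries that stood apart: it was -0.13 ± 0.38 on the log2 scale with all libraries (adjusted p = 0.951) and -1.07 ± 0.18 without WT LT-HSC 1 and Ahr-KO LT-HSC 2 and 3 (adjusted p = 0.0581). The remaining Ahr-KO libraries, at 9.27 to 14.6 CPM, lay below all WT libraries. Ahr-KO LT-HSC 2 and 3, at 33.4 and 38.1 CPM, lay above all WT libraries, so with all libraries the groups overlapped. The share of all genes that separate in this smaller set was not computed, and the set was chosen from earlier results of these data.

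Ccng1 (ENSMUSG00000020326; chromosome 11, 40748552 to 40755311, minus strand), which encodes cyclin G1, was lower in MPP than in LT-HSC in both genotypes. It had 99.3, 108, 91.6, 95.2 and 98.4 CPM in Ahr-KO MPP, against 149, 141, 133, 113 and 149.8 CPM in Ahr-KO LT-HSC. It had 86.9, 109.6, 118, 97.6 and 107 CPM in WT MPP, against 118, 134, 146, 147 and 136 CPM in WT LT-HSC. The Ahr-KO groups did not overlap, and in WT a single MPP library, at 118 CPM, reached the lowest LT-HSC library, WT LT-HSC 1. The level in MPP was 0.719 times that in LT-HSC in Ahr-KO (log2 -0.48 ± 0.10, adjusted p = 0.00122) and 0.762 times in WT (log2 -0.39 ± 0.10, adjusted p = 0.00592). The genotypes did not separate in either population, and the 95% interval of the Ahr-KO effect ran from -0.29 to 0.14 in MPP and from -0.20 to 0.25 in LT-HSC on the log2 scale. Of the 9 genes, Ccng1 was the only one called in Ahr-KO under all 18 alternatives, and in WT it was called under 17 of 18.

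Cdkn1a (ENSMUSG00000023067; chromosome 17, 29090976 to 29100727, plus strand) had 23.4, 25.1, 16.8, 18.6 and 18.9 CPM in Ahr-KO MPP and 13.7, 9.52, 9.20, 7.41 and 13.6 CPM in WT MPP. It had 3.82 to 5.97 CPM in Ahr-KO LT-HSC and 1.83 to 3.40 CPM in WT LT-HSC. Ahr-KO libraries lay above WT libraries without overlap in both populations, by 0.94 ± 0.20 on the log2 scale in MPP (edgeR adjusted p = 0.342, DESeq2 adjusted p = 0.00348) and by 0.69 ± 0.22 in LT-HSC (edgeR adjusted p = 0.474, DESeq2 adjusted p = 0.149). Groups that do not overlap were found for 1.17% of genes in MPP (0.610% higher, 0.560% lower). MPP exceeded LT-HSC by 2.17 ± 0.21 in Ahr-KO (adjusted p = 4.9e-07) and by 1.90 ± 0.21 in WT (adjusted p = 2.7e-06). The exons of Cdkn1a overlap an antisense transcript, AC167363.2, over 7.68% of their length, and the library kit does not mark strand.

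**Figure D3:**
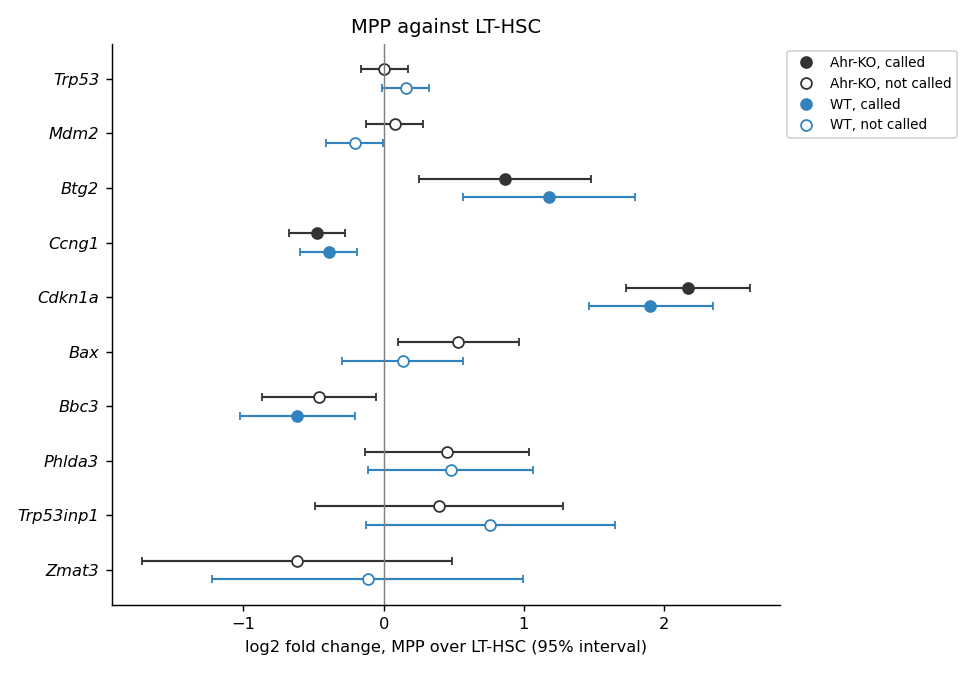
Log2 fold change of MPP over LT-HSC (x axis) with its 95% interval for the 9 genes and Cdkn1a (rows), in Ahr-KO (upper of each pair) and WT (lower); filled circles are genes called at an adjusted p under 0.05. Btg2 and Cdkn1a are filled on the right and Ccng1 on the left in both genotypes, and Bbc3 is filled in WT.

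The second comparison was between the populations. In Ahr-KO, 2 of the 9 genes were called between MPP and LT-HSC, Btg2 higher and Ccng1 lower, and in WT 3 were called, Btg2 higher and Ccng1 and Bbc3 lower. Of all genes tested 23.2% were called in Ahr-KO (12.5% higher, 10.7% lower) and 22.3% in WT (11.0% higher, 11.3% lower), and counts of 2 and 3 among 9 genes are near that background. The groups did not overlap for 2 of the 9 genes in Ahr-KO (Ccng1 and Bbc3, both lower; of all genes 21.6%, with 11.1% higher and 10.4% lower) and for 2 in WT (Btg2 higher and Mdm2 lower; of all genes 16.4%, with 8.32% higher and 8.09% lower). The median log2 fold change of the 9 genes was 0.08 in Ahr-KO and 0.14 in WT, against 0.01 for all genes in both. At an unadjusted p under 0.05, 4 of the 9 genes passed in each genotype, against 34.2% of all genes in Ahr-KO and 33.6% in WT. Without the 3 libraries that stood apart the counts of calls were 3 in Ahr-KO, where Bax was added, and 2 in WT, where Bbc3 was lost. In these fits 28.4% and 29.0% of all genes were called.

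Bax (ENSMUSG00000003873; chromosome 7, 45461697 to 45466898, minus strand) and Bbc3 (ENSMUSG00000002083; chromosome 7, 16308393 to 16318205, plus strand), whose product PUMA frees BAX from its inhibitors, are the apoptosis genes among the 9. They stood on opposite sides of 0 between the populations. Bax had 51.7, 46.1, 47.8, 39.9 and 36.0 CPM in Ahr-KO MPP, against 33.2, 37.0, 34.4, 25.5 and 23.0 CPM in Ahr-KO LT-HSC. It had 26.1, 36.3, 35.3, 35.0 and 50.7 CPM in WT MPP, against 54.7, 25.5, 30.2, 27.6 and 28.9 CPM in WT LT-HSC. The groups overlapped in both genotypes, and in WT the single highest library was WT LT-HSC 1. The log2 fold change of MPP over LT-HSC was 0.53 ± 0.21 in Ahr-KO (adjusted p = 0.0702) and 0.14 ± 0.21 in WT (adjusted p = 0.705). Without the 3 libraries that stood apart it was 0.70 ± 0.18 in Ahr-KO (adjusted p = 0.00706) and 0.39 ± 0.16 in WT (adjusted p = 0.0845). Bax was also called in Ahr-KO in the fit of only its 10 libraries (0.51 ± 0.15, adjusted p = 0.0233) and by voom (0.49 ± 0.14, adjusted p = 0.00942), and in WT by voom (0.37 ± 0.13, adjusted p = 0.0306). The exons of Bax overlap those of the predicted gene Gm45808 on the same strand over 12.2% of their length, and the sources used here do not say how reads there were assigned.

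Bbc3 had 7.52, 9.59, 8.82, 6.72 and 8.05 CPM in Ahr-KO MPP, against 11.7, 10.4, 10.95, 12.3 and 10.7 CPM in Ahr-KO LT-HSC. It had 7.10, 10.3, 8.35, 11.4 and 5.18 CPM in WT MPP, against 17.7, 12.5, 10.1, 10.4 and 14.2 CPM in WT LT-HSC. The Ahr-KO groups did not overlap and the WT groups did. The log2 fold change of MPP over LT-HSC was -0.46 ± 0.20 in Ahr-KO (adjusted p = 0.0987) and -0.62 ± 0.20 in WT (adjusted p = 0.0285), a difference between genotypes of 0.15 ± 0.28 (adjusted p = 0.960). The WT call was lost without WT LT-HSC 1 (log2 fold change -0.48 ± 0.19, adjusted p = 0.0650), and also without WT LT-HSC 8 or WT MPP 1, 3 or 5, with adjusted p of 0.0531 to 0.0633 for these 4. In fits of only the 10 libraries of each genotype the calls changed places. Bbc3 was called in Ahr-KO (-0.48 ± 0.15, adjusted p = 0.0267) and not in WT (-0.64 ± 0.24, adjusted p = 0.0999), and voom also called it in Ahr-KO (adjusted p = 0.0392).

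Trp53inp1 (ENSMUSG00000028211; chromosome 4, 11156431 to 11174379, plus strand), a stress-response gene that acts in autophagy and cell death, had 44.7, 43.2, 27.8, 56.2 and 58.3 CPM in Ahr-KO MPP and 76.0, 50.7, 70.5, 52.9 and 36.6 CPM in WT MPP. It had 38.9, 40.3, 29.7, 25.5 and 40.7 CPM in Ahr-KO LT-HSC, against 2.71, 48.1, 35.7, 36.7 and 45.8 CPM in WT LT-HSC. The value of 2.71 CPM was that of WT LT-HSC 1 and rested on 57 counts, and the median of the other 4 libraries was 15.2 times higher. The log2 fold change of MPP over LT-HSC was 0.40 ± 0.42 in Ahr-KO (adjusted p = 0.563) and 0.76 ± 0.43 in WT (adjusted p = 0.223). The value in WT was 0.46 ± 0.22 without the 3 libraries that stood apart (adjusted p = 0.134). That of Ahr-KO over WT was -0.32 ± 0.21 in MPP (adjusted p = 0.833) and 0.07 ± 0.53 in LT-HSC (adjusted p = 0.984). The value in LT-HSC was -0.25 ± 0.17 without the 3 libraries (adjusted p = 0.539).

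Phlda3 (ENSMUSG00000041801; chromosome 1, 135766119 to 135769136, plus strand), which encodes a repressor of AKT, was low, at 1.94 to 7.65 CPM over the 20 libraries. It averaged 5.57 ± 1.71 CPM in Ahr-KO MPP and 4.27 ± 0.89 CPM in WT MPP, with 4.07 ± 1.44 CPM in Ahr-KO LT-HSC against 3.06 ± 0.75 CPM in WT LT-HSC (SD, n = 5 each). The Ahr-KO mean was the higher in both populations, by 0.39 ± 0.27 on the log2 scale in MPP (adjusted p = 0.835) and 0.43 ± 0.30 in LT-HSC (adjusted p = 0.726), and the libraries overlapped. Without the 3 libraries that stood apart, Ahr-KO LT-HSC were at 5.79, 3.80 and 1.94 CPM and WT LT-HSC at 2.31 to 3.94 CPM. Over 17 alternatives the Ahr-KO effect in LT-HSC ran from 0.24 to 1.05, with 0 called. Zmat3 (ENSMUSG00000027663; chromosome 3, 32334792 to 32366014, minus strand), an RNA-binding zinc finger gene, had only 4 to 70 counts in a library, or 0.27 to 3.86 CPM. Its libraries also spread widely within a group, from 0.27 to 3.86 CPM in WT MPP. The 95% interval of its Ahr-KO effect ran from -1.23 to 1.23 in MPP and from -0.40 to 1.46 in LT-HSC on the log2 scale. The part of depth in these wide intervals was not tested.

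**Figure D4:**
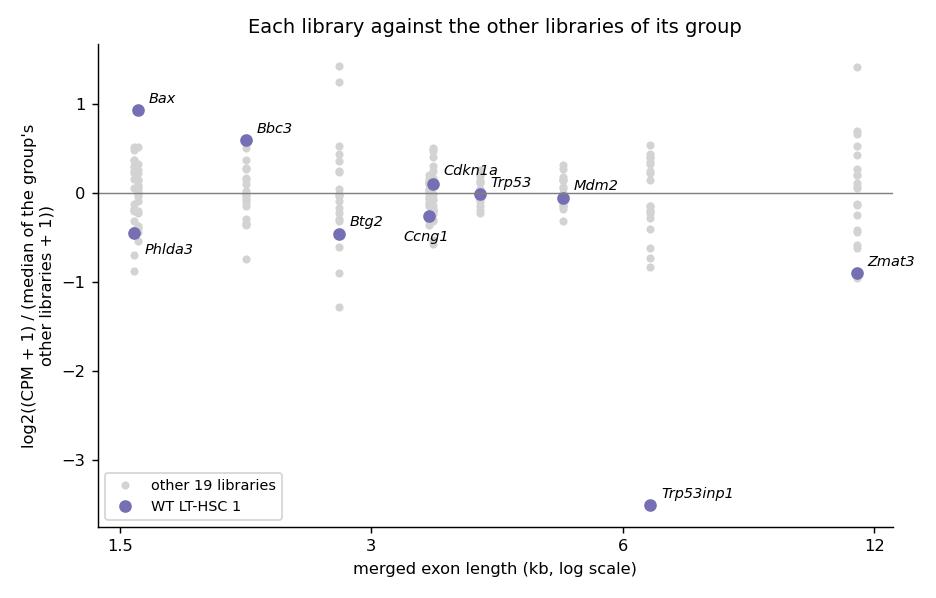
Level of each gene in each library against the median of the other 4 libraries of its group, as log2((CPM + 1)/(median + 1)) (y axis), by the merged exon length of the gene in kb (x axis, log scale); purple points are the library WT LT-HSC 1, grey points the other 19 libraries. For Bax and Bbc3, among the shorter genes, the purple points are above 0, and for Zmat3 and Trp53inp1, the longest, they are below it.

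WT LT-HSC 1 set the highest or the lowest value of its group for 8 of the 9 genes, not for Trp53. Its CPM was 1.94 times the median of the other 4 libraries for Bax (merged exons of 1576 bases), 1.55 times for Bbc3 (2124 bases), 0.992 times for Trp53 (4045 bases), 0.0657 times for Trp53inp1 (6475 bases) and 0.283 times for Zmat3 (11435 bases). Phlda3 (1559 bases) at 0.656 times, Btg2 (2743 bases) at 0.718 times and Ccng1 (3512 bases) at 0.836 times went against an order by length, being below Trp53, and Mdm2 (5083 bases) was at 0.965 times. Over all genes the rank correlation between this deviation and exon length was -0.345 in WT LT-HSC 1, the lowest of the 20 libraries. It was close to this in WT MPP 5, at -0.318, and highest in Ahr-KO MPP 5, at 0.311, so such a trend was not particular to WT LT-HSC 1. The part of exon length in these values was not tested.

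The 9 genes did not rise and fall together from library to library within groups. Over 20 libraries, with each group's mean removed from log2(CPM + 1), the median Pearson correlation of the 36 pairs was -0.00, 17 pairs were positive, and the range was -0.76 (Bax and Trp53inp1) to 0.43 (Ccng1 and Trp53inp1). With the library WT LT-HSC 1 left out, the range was -0.53 to 0.57 around a median of -0.08. The points share libraries, and these values are a description. Likeness to each of the 9 over the 20 libraries was measured by Pearson correlation of log2(CPM + 1), among the genes tested between the populations. The 9 genes themselves and predicted genes, known by their symbols, were left out of this search. The gene most alike was Nono for Trp53 (r = 0.82), Osgin2 for Mdm2 (0.78), Mcm10 for Btg2 (0.91), Pdgfc for Ccng1 (0.91) and Cacybp for Bax (0.94). It was Fah for Bbc3 (0.89), Ssh2 for Trp53inp1 (0.96), Dus4l for Phlda3 (0.76) and Mex3a for Zmat3 (0.78). Without WT LT-HSC 1 the value for Trp53inp1 was 0.77, and the values for the other 8 were 0.75 to 0.93.

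The wider pathway was described with 5 lists of 83 genes in the tables, the regulators of p53 and its further targets, and with 14 genes of the BCL2 family. Between Ahr-KO and WT edgeR called 0 of 76 tested list genes in MPP and 0 of 77 in LT-HSC, with 6 and 10 at an unadjusted p under 0.05 (6.62% and 8.85% of all genes). DESeq2 called 1 of the list genes in each, Cdkn1a in MPP and Pidd1 in LT-HSC, and voom called 0. Of all genes DESeq2 called 50 of 16044 in MPP and 147 of 16046 in LT-HSC. Voom called 8 of 16077 and 305 of 16065 in the same order. The smallest p after Cdkn1a in MPP were those of Gtse1, which binds p53 and restrains it (log2 fold change -0.47 ± 0.12, adjusted p = 0.534), and Ndn, a growth suppressor (0.55 ± 0.22, adjusted p = 0.664). In LT-HSC they were those of Pidd1, the scaffold of the PIDDosome (-0.58 ± 0.14, adjusted p = 0.373), Steap3 (0.80 ± 0.24, adjusted p = 0.463; 0.43 ± 0.17 without the 3 libraries) and Ndn (0.37 ± 0.11, adjusted p = 0.468). For the difference between the Ahr-KO effects 0 of 80 were called, with 4 at an unadjusted p under 0.05 (6.46% of all genes), and DESeq2 and voom called 0 of the 80. The smallest p in that comparison, the BCL2 family included, were those of Pidd1 (0.59 ± 0.22, adjusted p = 0.675), Ddb2 (0.75 ± 0.33, adjusted p = 0.756) and Bcl2a1a (-1.23 ± 0.52, adjusted p = 0.750).

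Between the populations the lists moved in both directions. In Ahr-KO 28 of 80 tested genes were called (13 higher and 15 lower in MPP), and in WT 23 of 80 (16 higher and 7 lower), against 23.2% and 22.3% of all genes. Genes called in both genotypes numbered 19, which is 67.9% of those called in Ahr-KO and 82.6% of those called in WT, and each had the same direction in both. The median log2 fold change of the lists was -0.06 in Ahr-KO and -0.04 in WT, against 0.01 over all genes. Without the 3 libraries that stood apart the counts were 35 of 80 in Ahr-KO and 31 of 80 in WT, where 28.4% and 29.0% of all genes were called.

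Among the regulators 5 of 23 were called in Ahr-KO (2 higher, 3 lower) and 4 of 23 in WT (2 higher, 2 lower). The checkpoint kinase genes Chek2 and Chek1 were higher in MPP, Chek2 by 0.54 ± 0.11 on the log2 scale in Ahr-KO (adjusted p = 0.00156) and 0.52 ± 0.11 in WT (adjusted p = 0.00216). Chek1 was higher by 0.37 ± 0.11 in both genotypes. Hipk2, which encodes a kinase that activates p53, was lower by -0.75 ± 0.25 in Ahr-KO and -0.78 ± 0.25 in WT, Ppp1r13b by -0.40 ± 0.13 and -0.42 ± 0.13 in the same order. Pml was called in Ahr-KO (-1.04 ± 0.28, adjusted p = 0.0116) and was at -0.51 ± 0.28 in WT (adjusted p = 0.217), where it was -0.75 ± 0.17 without the 3 libraries that stood apart (adjusted p = 0.00270). Of the cell cycle targets 8 of 14 were called in Ahr-KO (2 higher, 6 lower) and 6 of 14 in WT (3 higher, 3 lower). Psrc1 was the gene called higher beside Cdkn1a in both genotypes, while Gtse1 was called in WT (0.90 ± 0.18, adjusted p = 0.00107) and was at 0.49 ± 0.18 in Ahr-KO (adjusted p = 0.0532; 0.59 ± 0.18 and 0.0214 without the 3 libraries). Plk2, a kinase gene induced by stress, averaged 0.659 CPM in Ahr-KO MPP against 12.6 CPM in Ahr-KO LT-HSC, and 0.930 CPM in WT MPP and 15.8 CPM in WT LT-HSC. Ndn averaged 7.03 CPM in Ahr-KO MPP against 54.7 CPM in Ahr-KO LT-HSC, and 4.79 CPM in WT MPP and 42.6 CPM in WT LT-HSC. Ptpn14 was lower in MPP in both genotypes (-2.67 ± 0.74 in Ahr-KO, -2.16 ± 0.73 in WT). Sesn2, a restraint on mTORC1, was called in Ahr-KO (-0.90 ± 0.19, adjusted p = 0.00188; WT -0.40 ± 0.19, adjusted p = 0.145).

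Of the apoptosis targets 3 of 14 were called in Ahr-KO (2 higher, 1 lower) and 4 of 14 in WT, all higher in MPP. Pidd1 averaged 51.8 CPM in Ahr-KO MPP against 20.1 CPM in Ahr-KO LT-HSC (adjusted p = 5.0e-06), and 52.2 CPM in WT MPP and 30.5 CPM in WT LT-HSC (adjusted p = 0.00134). Bid, which relays death receptor signals to mitochondria, was higher by 0.54 ± 0.13 in Ahr-KO and 0.42 ± 0.13 in WT on the log2 scale. Dram1, an autophagy gene, was higher in MPP than in LT-HSC in WT (1.58 ± 0.42, adjusted p = 0.00938) and at 0.53 ± 0.41 in Ahr-KO (adjusted p = 0.394). In Ahr-KO it was 1.33 ± 0.41 without the 3 libraries that stood apart (adjusted p = 0.0204). The low gene Eda2r was lower in MPP than in LT-HSC in Ahr-KO (-2.01 ± 0.69, adjusted p = 0.0421) and at -0.92 ± 0.65 in WT (adjusted p = 0.349). Of the repair genes 2 of 7 were called in each genotype, the nucleotide excision repair genes Ddb2 and Xpc. Ddb2 averaged 19.8 CPM in Ahr-KO MPP against 6.53 CPM in Ahr-KO LT-HSC, and 17.4 CPM in WT MPP and 9.63 CPM in WT LT-HSC. Xpc was higher in MPP by 0.57 ± 0.15 in both genotypes.

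Of the metabolic and other targets 10 of 22 were called in Ahr-KO (5 higher, 5 lower) and 7 of 22 in WT (5 higher, 2 lower). Tigar, which lowers glycolytic flux, was higher in MPP by 1.31 ± 0.20 in Ahr-KO and 1.13 ± 0.20 in WT on the log2 scale, and 9030617O03Rik by 1.18 ± 0.36 in Ahr-KO (1.83 ± 0.30 without the 3 libraries) and 1.54 ± 0.36 in WT. Gpx1, a peroxide-detoxifying enzyme gene, was higher in both (0.47 ± 0.14 in Ahr-KO, 0.54 ± 0.14 in WT). Steap3, a ferrireductase gene, was called in WT (1.09 ± 0.22, adjusted p = 0.00110; Ahr-KO 0.44 ± 0.21, adjusted p = 0.157). In Ahr-KO it was 0.85 ± 0.20 without the 3 libraries (adjusted p = 0.00403). Ak1 and Ephx1 were lower in MPP in both genotypes, Ak1 with 6.43 CPM in Ahr-KO MPP against 27.9 CPM in Ahr-KO LT-HSC, and 5.62 CPM in WT MPP and 30.8 CPM in WT LT-HSC. Within Ahr-KO, Tgfa was lower in MPP than in LT-HSC (-3.08 ± 0.87, adjusted p = 0.0146), averaging 0.348 CPM in MPP and 2.90 CPM in LT-HSC. In WT, where it was not called, it averaged 0.490 CPM in MPP and 1.57 CPM in LT-HSC. The BCL2 family had 4 of 13 genes called in Ahr-KO (3 higher, 1 lower) and 3 of 13 in WT (2 higher, 1 lower). Bcl2l1, which encodes the survival protein BCL-XL, was lower in MPP in both genotypes, with 34.4 CPM in Ahr-KO MPP against 58.1 CPM in Ahr-KO LT-HSC, and 31.4 CPM in WT MPP and 65.6 CPM in WT LT-HSC. Higher in MPP were Bak1 (1.28 ± 0.44), Bcl2l2 (1.23 ± 0.43) and Bcl2 (0.41 ± 0.15) in Ahr-KO and the near-identical copies Bcl2a1a (1.80 ± 0.38) and Bcl2a1d (1.45 ± 0.42) in WT, whose shared reads make each uncertain. In the other genotype the MPP mean was the higher too. In WT it was 1.79 against 1.08 CPM for Bak1, 1.80 against 1.10 for Bcl2l2 and 91.9 against 87.3 for Bcl2. In Ahr-KO it was 1.11 against 0.740 CPM for Bcl2a1a and 1.51 against 1.02 for Bcl2a1d. Without the 3 libraries that stood apart the calls in Ahr-KO of Bak1 (1.23 ± 0.48, adjusted p = 0.0638) and Bcl2 (0.29 ± 0.13, adjusted p = 0.107) were lost.

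Several of these calls rested near the threshold. With single libraries left out in turn, the calls in Ahr-KO of Bak1, Bcl2l2, Bcl2, Eda2r, Chek1, Hipk2, Gpx1, 9030617O03Rik and Ppp1r13b were each lost for 4 to 9 of the 10 libraries, and the calls in WT of Ptpn14, Chek1, Bid, Hipk2, Ppp1r13b and Bcl2a1d for 1 to 8 of 10. The calls of Cdkn1a, Pidd1, Ndn, Plk2, Ddb2, Tigar, Ak1, Ephx1, Chek2, Xpc and Bcl2l1 stood in each such fit in both genotypes. A call in a single genotype does not show a difference between genotypes, and no such difference was called for any of these genes.

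**Figure D5:**
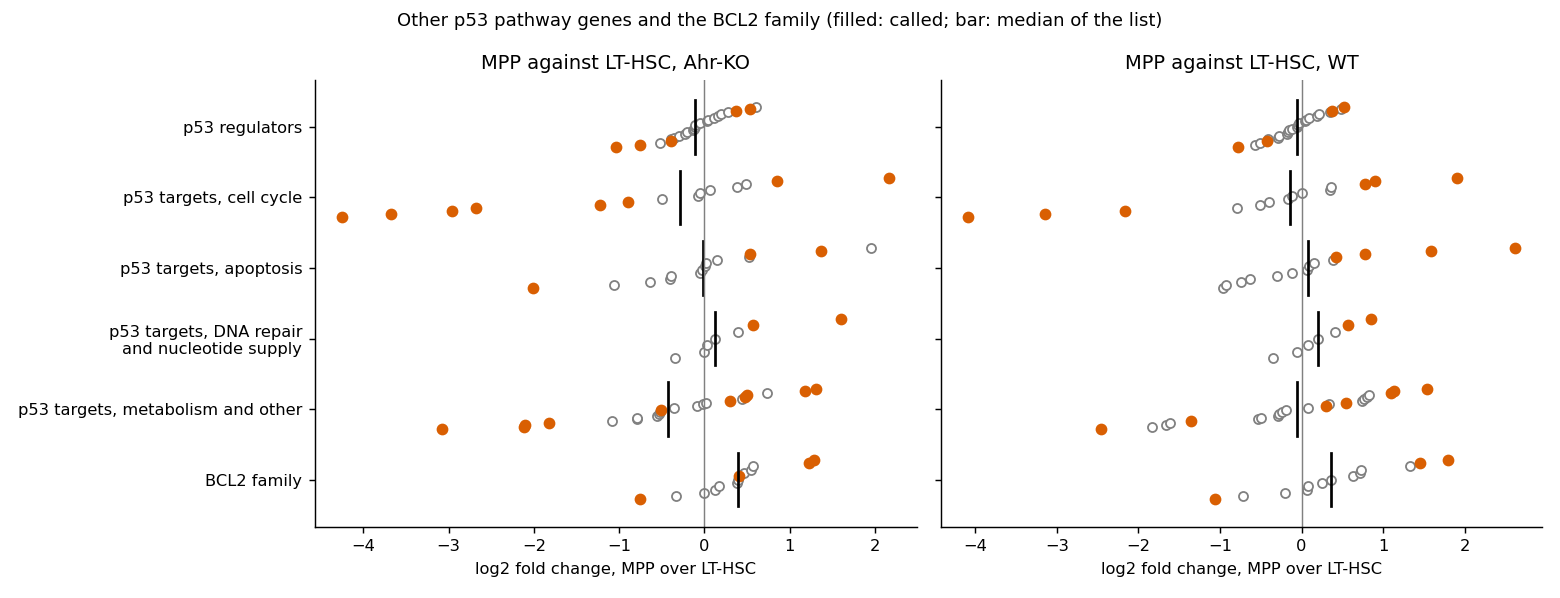
Log2 fold change of MPP over LT-HSC (x axis) for every tested gene of the 5 p53 pathway lists and the BCL2 family (rows), in Ahr-KO (left) and WT (right); filled points were called, open points were not, and black bars are list medians. Called genes stand on both sides of 0 in the regulator, cell cycle and metabolic lists of both genotypes.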

How the data were processed

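RNA from 20 libraries of sorted mouse MPP and LT-HSC was sequenced, and the values used are the raw counts per gene symbol as deposited by the authors, in 1 table of 10 libraries for each population, with 49568 symbols. Per the submitters' processing notes, Trimmomatic 0.36, STAR 2.5.2b, Subread 1.5.0p3 with featureCounts and DESeq2 1.12.4 were used with GRCm38.p5. Per the labels' protocols, a TruSeq kit with oligo-dT selection was used; this kit does not mark strand, so overlapping genes on opposite strands cannot be separated. Part of that protocol text speaks of other cells and of fewer samples per group than this series has.

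Groups follow the labels. Genes were filtered with filterByExpr, scaled by TMM and tested with edgeR 4.0.16 (quasi-likelihood F test, robust, in R 4.3.3). Each comparison of genotypes used the 10 libraries of its population, and the comparisons of populations and the difference between Ahr-KO effects used 1 fit of 20 libraries. P-values were adjusted by Benjamini-Hochberg over all genes tested, with calls at 0.05. Standard errors are the log2 fold change over the root of F. All 9 genes passed the filter in every comparison. Library totals were 13712668 to 21622653 counts. The scripts were tested on simulated data.

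The 9 genes, the pathway lists and the markers were chosen with earlier results of these data known. Pathway genes are named by a rule: of each list up to 3 genes called higher and up to 3 called lower, by smallest p, and where none was called the 3 genes with the smallest p over all lists. Cop1 and Dglucy are not among the table's symbols, and their older symbols Rfwd2 and 9030617O03Rik were used. Positions are from GENCODE M21 (GRCm38), promoter windows from RefSeq. The alternatives were other scalings and filters, DESeq2 1.42.0, limma 3.58.1 voom, other sets of libraries, a replicate block and leaving out each library. The 3 libraries left out together in one alternative were chosen from earlier results of these data.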

Additional observations from a re-analysis of the deposited data

Results flagged for a closer look

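Each group of 5 libraries was examined for a library whose gap to its nearest neighbour took up most of the range of the group, for the 9 genes and Cdkn1a. Of 40 such groups 3 had one, and chance alone marks about 1 in 20. Mdm2 in WT LT-HSC 8 was at 112.7 CPM, with the other 4 libraries of the group at 92.1 to 97.4 CPM. Bax in WT LT-HSC 1 was at 54.7 CPM, with the others at 25.5 to 30.2 CPM. Trp53inp1 in WT LT-HSC 1 was at 2.711 CPM, with the others at 35.7 to 48.1 CPM.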

How the results depend on the processing

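Alternatives were summarised for the named genes, with 1960 values fitted for 104 gene results. Of these results 53 were called, and none of the 53 changed sign in an alternative, while 34 lost the call in at least 1. Of the results not called 5 gained a call in at least 1 alternative. The opposite sign was found in 55 of the 1960 values, all of results that were not called. The cause was not tested for any of the values given here. For Ahr-KO against WT in LT-HSC the number of all genes called, 1 in the fit reported, was 3 with DESeq2 size factors, 4 with no filter, 3 with a filter at 5 CPM, 147 with DESeq2, 305 with voom, 14 in a fit of all 20 libraries and 32 without the 3 libraries that stood apart. With single libraries left out it was 0 to 203, with 203 reached without WT LT-HSC 1. In MPP the number, 5 as reported, was 3 with DESeq2 size factors, 50 with DESeq2, 8 with voom and 0 to 4 with single libraries left out. DESeq2 called 1 pathway gene in each population. For the difference between the Ahr-KO effects DESeq2 called 51 genes and voom 18. For MPP against LT-HSC in WT voom called 6493 of 17416 genes and 37 of 80 pathway genes. In Ahr-KO the number of the 9 genes called between populations was 1 with no filter, 4 with voom, and 1 to 2 with single libraries left out. Of all genes 4041 of 17416 were called there in the fit reported, and 3204 to 4112 with single libraries left out. For no filter and voom the share of all genes in Ahr-KO is not given here, so those counts are no result about the 9 genes.

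Some values that were not called turned sign, and not all of these were near 0. In LT-HSC the Ahr-KO effect on Ccng1 was -0.018 with voom and -0.038 without the 3 libraries, that on Bax 0.18 with voom, and that on Trp53inp1 -0.22 with voom and -0.25 without the 3 libraries. With single libraries left out, Ccng1 ranged from -0.026 to 0.079, Bax from -0.20 to 0.14, Trp53inp1 from -0.23 to 0.22 and Btg2 from -0.44 to 0.057. In MPP the ranges were -0.017 to 0.12 for Mdm2, -0.19 to 0.073 for Bbc3 and -0.25 to 0.70 for Zmat3. Between populations they were -0.024 to 0.39 for Bax and -0.82 to 0.17 for Zmat3 in WT, and -0.075 to 0.033 for Trp53 and -0.030 to 0.11 for Mdm2 in Ahr-KO. Trp53 in Ahr-KO was also -0.0075 with DESeq2 size factors, -0.0061 with a filter at 5 CPM, -0.0071 with DESeq2, -0.010 with voom, -0.016 in a fit of 10 libraries, -0.024 without the 3 libraries and -0.076 with the replicate block. For the difference between the Ahr-KO effects, Phlda3 was 0.025 with voom and 0.15 without the 3 libraries, Bbc3 -0.064 and -0.030 in the same order, Zmat3 0.091 with voom and Btg2 0.60 without the 3 libraries. In the fit reported this difference was -0.50 ± 0.75 for Zmat3 and -0.31 ± 0.41 for Btg2. The ranges with single libraries left out were -0.22 to 0.12 for Phlda3, -0.0014 to 0.26 for Bbc3 and -0.82 to 0.17 for Zmat3.

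The correlations of the deviations of same-numbered libraries were -0.0415 and 0.0628 for the genotypes in LT-HSC, -0.177 to 0.00972 in MPP, -0.0596 to 0.0301 for the populations in WT and 0.0147 to 0.179 in Ahr-KO, where all 4 were positive and 3 of 4 MPP libraries correlated best with the LT-HSC library of their number, a hint from the data and not from the design. Not every pair passed 0.1 in any comparison, so the samples are treated as sharing only a number. The replicate block kept only shared numbers: 1 and 4 between genotypes in LT-HSC, and 1, 4 and 5 between populations in WT. With so few libraries, the counts of calls in these fits do not tell whether the numbers pair samples. The block called 0 genes between genotypes in either population. Between populations in WT it called 113 of 16230 genes, 0 of the 9 and 2 of 78 pathway genes. Between populations in Ahr-KO it called 4679 genes, 32 pathway genes and 2 of the 9, Ccng1 and Bax (0.49 ± 0.10, adjusted p = 0.0140), while Btg2 lost its call (0.81). Counts were low for Zmat3, with 4 to 70 a library, and for Phlda3, with 32 to 150. Calls of several pathway genes also rested on low counts. In WT LT-HSC Bcl2a1a had 6 to 12 counts a library and Bcl2a1d 9 to 23. In Ahr-KO LT-HSC Bak1 had 12 to 25 and Bcl2l2 4 to 32. In Ahr-KO MPP Tgfa had 1 to 14, Eda2r 0 to 12 and Plk2 0 to 32.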
